A study of Homo sapiens with 4 samples.

Results

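The proteasome genes of MOLM-13 cells were compared between cultures with and without induced GADD45G. Members were the protein-coding genes whose symbols begin with PSMA, PSMB, PSMC, PSMD, PSME, PSMF or PSMG and a digit, found through their Ensembl IDs; 1 further gene of this pattern is not reported here. The rule gave 48 genes among 57820 listed IDs, of which 19263 are protein-coding. Of these 48, 42 could be tested, 5 lay below the filter on low values and 1 is not listed in the file of a GADD45g library. No ID was paired with PSMB3, a constitutive beta subunit, and it has no value here. The rule also took in PSMC3IP and PSME3IP1, which are named after proteasome proteins they bind but are no subunits. MOLM-13 is an established human acute myeloid leukaemia line with an MLL-AF9 fusion and an internal tandem duplication of FLT3. One group was untreated (2 libraries) and the other, titled GADD45g, received doxycycline at 1 mg/ml, as labelled, for 4 days (2 libraries). Both groups were grown in RPMI medium with serum. Neither the promoter that drives the construct nor whether the line is a clone is stated in the labels. Doxycycline and the expressed gene differed together, so every difference covers both.

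The proteasome is the protease complex that degrades ubiquitin-tagged proteins in the cytosol and nucleus. Its 20S core is a barrel of alpha subunits (PSMA) that gate the entrance and beta subunits (PSMB) that form the chamber, of which PSMB5, PSMB6 and PSMB7 carry the active sites. The 19S cap recognises, unfolds and feeds in the substrate, with a ring of ATPases (PSMC) and non-ATPase subunits (PSMD) that bind or remove ubiquitin. In cells of the immune system the inducible subunits PSMB9 and PSMB10 replace PSMB6 and PSMB7 in new cores, and PSME1 and PSME2 form an alternative cap. PSMG1 to PSMG4 and POMP are chaperones that build the core and are not part of the finished particle.

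Levels are RPKM, read counts scaled to gene length and library depth. The libraries held 18778791 and 15683931 reads (untreated 1 and 2) and 18895470 and 15968886 reads (GADD45g 1 and 2), as recovered from the values, and the tested members rested on 67 to 11554 reads each. Changes are differences in log2(RPKM + 1), GADD45g minus untreated, with the standard error (SE) of limma and a threshold of 0.05 on the adjusted p. GADD45G stood at 10.5 and 0.289 RPKM in the untreated libraries and at 3236 and 2118 RPKM in the GADD45g libraries. Of 6 myeloid markers, PTPRC, SPI1, CD33 and LYZ were present in every library, while MPO lay between 0.162 and 0.278 RPKM and FLT3 at 0.958 and 1.19 RPKM untreated and 0.0889 and 0.0451 RPKM with GADD45g. The summed level of these 6 was 1286 and 989 RPKM untreated and 411 and 376 RPKM with GADD45g, most of it LYZ, and its part in the results was not tested. Libraries 1 of both groups stood apart by epithelial markers. The summed level of 6 of these was 40.2 and 39.6 RPKM in untreated 1 and GADD45g 1, against 0.125 and 0.111 RPKM in untreated 2 and GADD45g 2, where EPCAM and KRT19 were listed at 0. Their part in the results was not tested, and ratios within the libraries numbered 2 are given for the 4 members that fell. Fewer cells of a type and less RNA per cell cannot be told apart in these bulk samples.

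Most proteasome genes moved little, and the 2 genes that fell most were chaperones of core assembly. Of 42 tested members, 4 fell (PSMG1, PSMG2, PSMB10 and PSMA3) and 0 rose. Over all 10771 tested genes, 26.7% fell and 12.2% rose, together 38.9%, against 9.52% of the tested members. At an unadjusted limma p under 0.05 there were 7 of the 42 members, beside 5138 of all 10771 tested genes. The median log2 change of the tested members was -0.17, beside -0.21 for all tested genes, and 22 of the 42 lay above the latter. Of the 29 tested subunits of the constitutive core and cap, 26 had a 95% interval that included 0, and 23 had one that lay within 1 log2 unit of 0 on either side. By order alone, 17 tested members had both GADD45g values below both untreated values and 6 had both above, where 45.8% and 24.1% of all tested genes did. The log2 changes ran from -1.77 to 0.64, and 3 members changed by at least 1 log2 unit, beside 22.7% of all tested genes. The counts moved with the scaling. With the median change of all genes shifted to 0, 2 members were lower (19% of all genes) and 4 higher (17.4% of all genes), the latter being PSMD2, PSMD4, PSMD8 and PSMA5. Quantile normalization gave 2 lower and 2 higher, against 19.3% and 17.4% of all genes, and upper quartile scaling 3 lower and 3 higher, against 21.3% and 15.8%. The voom fit on recovered reads gave 4 lower and 1 higher, against 29.6% and 13.5%. Without untreated 2 there were 5 lower and 1 higher, against 22.7% and 10.5%.

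**Figure D1:**
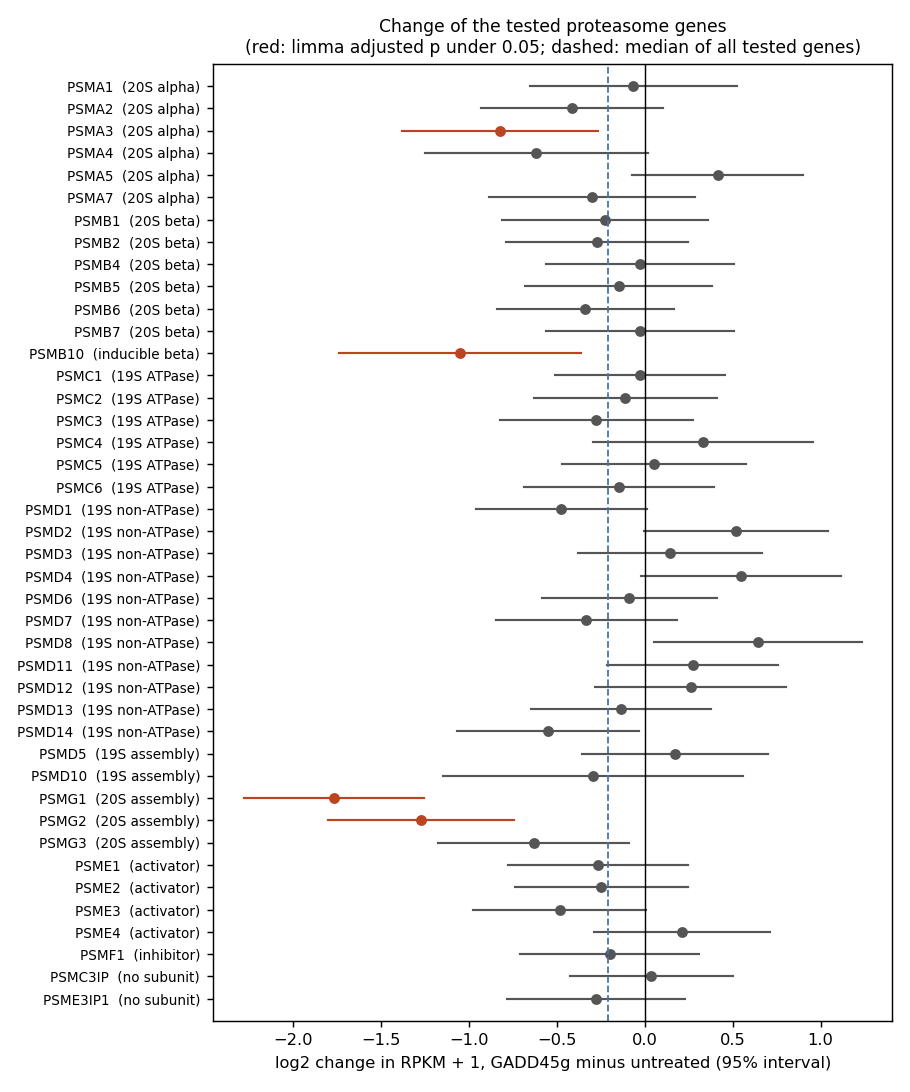
Log2 change of each of the 42 tested members (points) with its 95% limma interval (lines), grouped by role; the dashed line is the median of all tested genes at -0.21. The 4 red genes passed the threshold, PSMG1 and PSMG2 lie farthest to the left, and the intervals of 26 of 29 tested structural subunits cross 0.

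All 4 genes of the 20S assembly chaperones had both GADD45g values below both untreated values, and 2 of the 3 tested ones fell. Over all tested genes, 45.8% had this order and 26.7% fell. PSMG1, which pairs with PSMG2 to hold alpha subunits together while their ring forms, was at 28.8 and 21.6 RPKM in the untreated libraries and at 6.71 and 6.52 RPKM in the GADD45g libraries. The GADD45g values lay close together, far below either untreated value, with a log2 change of -1.77 ± 0.23 (SE; limma adjusted p = 0.000214). PSMG2 went from 30.8 and 24.4 RPKM to 9.54 and 12.1 RPKM, a log2 change of -1.27 ± 0.24 (adjusted p = 0.00186). Both calls held in all 16 alternative settings, with an adjusted p of at most 0.0209 for PSMG1 and 0.0350 for PSMG2. Within the libraries numbered 2, the GADD45g to untreated ratio was 0.302 for PSMG1 and 0.496 for PSMG2.

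PSMG3 and PSMG4 form the second chaperone pair, which acts on the same ring. PSMG3 was at 16.3 and 12.1 RPKM untreated and at 10.2 and 7.48 RPKM with GADD45g, so the groups did not overlap. Its log2 change of -0.63 ± 0.25 did not pass (adjusted p = 0.0641), but did in 3 of 16 settings, among them a low-value limit of 5 RPKM (0.0339) and limma's robust prior (0.0407). PSMG4 was low, at 0.992 and 1.19 RPKM (194 and 194 reads) untreated and 0.310 and 0.246 RPKM (61 and 41 reads) with GADD45g. It was below the filter and not tested. Without a filter its log2 change was -0.71 (limma adjusted p = 0.0422), a value that the 1 RPKM added before the log2 shrinks at such low levels. The GADD45g to untreated ratio of mean RPKM was 0.255 for PSMG4 and 0.263 for PSMG1. Summed over these 4 genes, the level went from 76.8 and 59.3 RPKM to 26.7 and 26.3 RPKM.

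POMP, the chaperone that brings beta subunits to the ring, did not follow this order. It was at 73.6 and 48.0 RPKM untreated and 67.3 and 62.9 RPKM with GADD45g, with GADD45g values inside the untreated range and a log2 change of 0.13 ± 0.27 (adjusted p = 0.736). The PSMG1 to POMP ratio was 0.392 and 0.450 in the untreated libraries and 0.0998 and 0.104 in the GADD45g libraries. These ratios did not overlap between groups (two-sided exact permutation p = 0.33, the smallest that 2 against 2 libraries can give). The PSMG1 to POMP ratio was not among the planned ratios. It rests on the PSMG1 and POMP values given above and is no separate evidence. PAAF1, which binds free cap ATPases during assembly and was on a list of associated proteins, fell from 6.95 and 7.29 RPKM to 3.36 and 3.35 RPKM (log2 change -0.90 ± 0.21, adjusted p = 0.00614), and missed the threshold without either GADD45g library (highest adjusted p 0.0560). The cap chaperones in the rule showed no such order. PSMD10, also known as gankyrin, was at 35.3 and 16.2 RPKM untreated and 27.9 and 13.4 RPKM with GADD45g, higher in both libraries numbered 1 (log2 change -0.29 ± 0.39, adjusted p = 0.582). PSMD5 was at 12.6 and 10.9 RPKM against 11.3 and 15.6 RPKM (0.17 ± 0.24, adjusted p = 0.604).

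**Figure D2:**
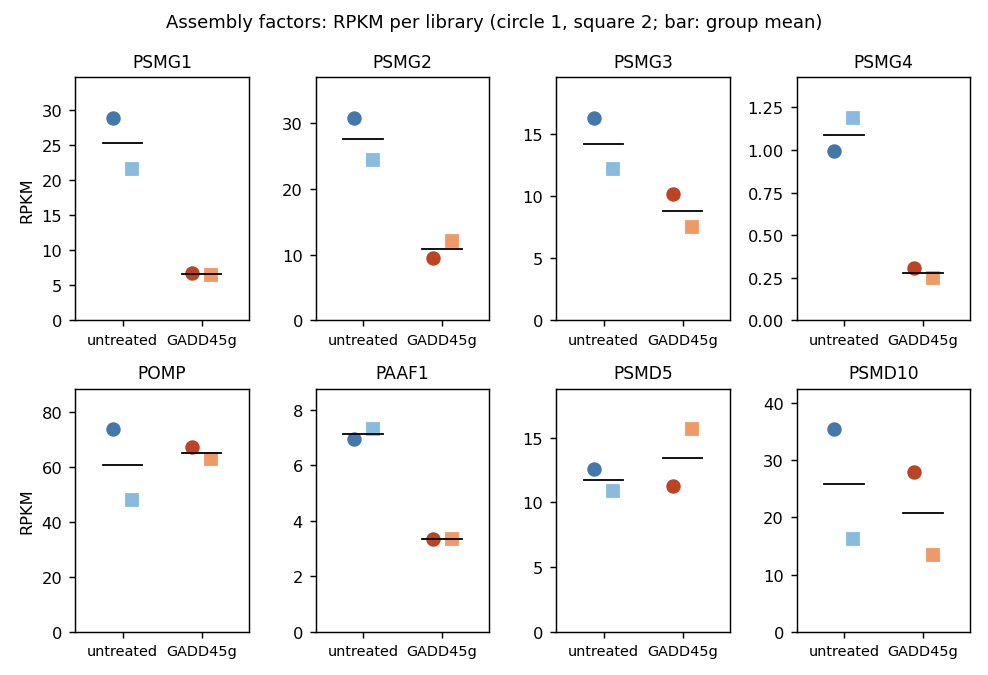
RPKM of 8 assembly factors in each library (circles, replicate 1; squares, replicate 2; bars, group means; axes start at 0). PSMG1, PSMG2, PSMG3, PSMG4 and PAAF1 have both GADD45g values below both untreated values, whereas POMP, PSMD5 and PSMD10 overlap.

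Stretches of 250 bases before the start site are shown for the 20S assembly chaperones in the table, with PSMB10, which fell, and PSME2, which did not pass. The GADD45g values of all these genes, PSMB10 and PSME2 included, lay below the untreated ones, an order that 45.8% of all tested genes had. The stretches are from RefSeq (GRCh38.p14), 5′ to 3′ on the gene's strand. The files use another build and give no coordinates. The table holds no entry for PSMG3, and for PSMG2 the one of 2 start sites with a match is shown. Capitals mark matches on either strand to the antioxidant response element TGACNNNGC (the site of NFE2L1 and NFE2L2), the CCAAT box CCAAT (the site of NF-Y) or the interferon-stimulated response element, here 2 runs of GAAA with any 2 bases between them.
PSMG1, chr21:39183452-39183701, minus strand: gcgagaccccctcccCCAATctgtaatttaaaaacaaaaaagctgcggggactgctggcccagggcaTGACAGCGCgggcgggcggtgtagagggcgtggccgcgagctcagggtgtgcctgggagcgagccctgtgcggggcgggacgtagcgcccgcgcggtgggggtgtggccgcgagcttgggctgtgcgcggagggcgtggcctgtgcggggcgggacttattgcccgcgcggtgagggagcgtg
PSMG2, chr18:12658488-12658737, plus strand: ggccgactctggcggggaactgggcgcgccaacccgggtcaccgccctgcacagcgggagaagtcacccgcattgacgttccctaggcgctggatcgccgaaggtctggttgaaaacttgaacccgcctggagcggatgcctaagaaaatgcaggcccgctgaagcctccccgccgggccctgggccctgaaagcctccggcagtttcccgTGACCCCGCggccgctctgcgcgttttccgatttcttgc
PSMG4, chr6:3258697-3258946, plus strand: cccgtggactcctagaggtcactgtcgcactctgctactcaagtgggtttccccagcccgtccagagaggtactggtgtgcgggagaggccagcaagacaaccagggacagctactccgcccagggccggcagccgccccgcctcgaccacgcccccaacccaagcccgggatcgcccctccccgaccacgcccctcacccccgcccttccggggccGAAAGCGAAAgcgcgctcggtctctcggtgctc
PSMB10, chr16:67936851-67937100, minus strand: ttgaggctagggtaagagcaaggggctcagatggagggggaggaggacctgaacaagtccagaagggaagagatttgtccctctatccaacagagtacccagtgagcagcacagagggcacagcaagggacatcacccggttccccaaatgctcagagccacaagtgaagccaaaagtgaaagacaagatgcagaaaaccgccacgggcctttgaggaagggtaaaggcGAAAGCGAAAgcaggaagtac
PSME2, chr14:24146611-24146860, minus strand: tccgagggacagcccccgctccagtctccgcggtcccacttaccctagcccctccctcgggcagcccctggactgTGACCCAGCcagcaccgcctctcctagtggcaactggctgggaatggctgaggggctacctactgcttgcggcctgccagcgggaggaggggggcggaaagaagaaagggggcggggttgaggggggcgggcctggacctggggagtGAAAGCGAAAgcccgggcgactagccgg

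The same letters GAAAGCGAAA stood in the stretches of PSMB10, PSME2 and PSMG4, close to each start site. Of the 48 members, 42 had an entry in the table, with 52 start sites. The antioxidant response element was found before 12 of these start sites (23.1%), against 10.9% of the 35116 in the table. For the CCAAT box the shares were 42.3% and 32.0%, for the interferon-stimulated response element 9.62% and 3.02%, and for the gamma-activated site TTCNNNGAA 11.5% and 6.57%. Matches of different motifs may overlap, and all of them are letters, not measured binding. PSMG1 and PSMG2, which fell, each had an antioxidant response element match, while PSMA3 and PSMB10, which also fell, had none. Of the tested members that did not pass the threshold, PSMA4, PSMC5, PSMD3, PSMD5, PSMD12, PSME1, PSME2 and PSME4 each had such a match.

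In the alpha ring, 1 of 6 tested subunits fell and 0 rose, where 26.7% and 12.2% of all tested genes did. The median log2 change was -0.36, beside -0.21 for all tested genes. PSMA3 was at 35.2 and 23.4 RPKM untreated and at 15.7 and 15.9 RPKM with GADD45g. The groups did not overlap, and the log2 change was -0.82 ± 0.25 (adjusted p = 0.0248). Within the libraries numbered 2 the GADD45g to untreated ratio was 0.680. It did not pass without untreated 1 (log2 change -0.54), without either GADD45g library, without a filter, or after upper quartile scaling, quantile normalization or a shift of the median (adjusted p 0.0568 to 0.128). PSMA4 was at 80.1 and 47.5 RPKM against 44.5 and 35.9 RPKM, a log2 change of -0.62 ± 0.29 that did not pass (adjusted p = 0.115), but did in 2 of 16 settings, among them without untreated 2 (0.0393). PSMA7, the alpha subunit of the highest level, was at 95.5 and 105 RPKM untreated and 97.7 and 67.3 RPKM with GADD45g, where GADD45g 2 alone was low (log2 change -0.30 ± 0.27). PSMA5 had both GADD45g values above both untreated values, 22.8 and 20.8 RPKM against 16.2 and 16.0 RPKM, with a log2 change of 0.41 ± 0.22 (adjusted p = 0.163).

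None of the 6 constitutive beta subunits passed the threshold (median log2 change -0.19, beside -0.21 for all tested genes), and 0 did with voom on recovered reads. At an unadjusted limma p under 0.05 there were 0. Over all tested genes, 38.9% passed in either direction and 5138 of 10771 had an unadjusted limma p under 0.05. With voom, 29.6% of all genes fell and 13.5% rose. PSMB5, the chymotrypsin-like active site and the main target of the drug bortezomib, was at 20.8 and 16.2 RPKM untreated and 18.5 and 14.7 RPKM with GADD45g. Its log2 change was -0.15, with a 95% interval from -0.68 to 0.38. PSMB6, the caspase-like site, was at 39.98 and 38.3 RPKM against 32.4 and 29.2 RPKM. These 4 values did not overlap between groups, but the log2 change of -0.34 (interval -0.84 to 0.17) did not pass. PSMB7, the trypsin-like site, was at 47.3 and 45.0 RPKM against 51.5 and 39.8 RPKM (log2 change -0.03, interval -0.56 to 0.51). PSMB1, a structural subunit and the highest of the class by the mean over all 4 libraries, was at 107 and 73.8 RPKM against 71.4 and 80.4 RPKM. PSMB4, another structural subunit, was at 68.3 and 67.4 RPKM against 73.4 and 60.4 RPKM, above PSMB1 in GADD45g 1. Only PSMB2 and PSMB6 had both GADD45g values below both untreated ones, an order that 45.8% of all tested genes had.

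The inducible subunits gave a less settled picture. PSMB10 was at 4.25 and 9.94 RPKM untreated (148 and 289 reads) and at 2.40 and 2.94 RPKM with GADD45g (84 and 87 reads). Both GADD45g values lay below both untreated ones, although the untreated libraries themselves differed widely. The log2 change was -1.05 ± 0.31 (adjusted p = 0.0214), and -0.52 without untreated 2 (adjusted p = 0.122). The ratio within the libraries numbered 2 was 0.296. The call was also lost without either GADD45g library, without a filter, and after quantile normalization or a shift of the median (adjusted p 0.0575 to 0.203). The PSMB10 to PSMB7 ratio was 0.0899 and 0.221 untreated and 0.0466 and 0.0738 with GADD45g, which do not overlap (two-sided exact permutation p = 0.33, the smallest possible here). PSMB9 was at 7.19 and 4.44 RPKM untreated and 4.26 RPKM in GADD45g 2, and has no value in GADD45g 1 and no test. Its ratio to PSMB6 was 0.180 and 0.116 untreated and 0.146 in GADD45g 2, inside the untreated range. PSMB11, the beta subunit of the thymus, had 0 reads in all 4 libraries, which allows up to 0.0907 RPKM (3 reads) in the shallowest. PSMA8, an alpha subunit of the testis, had 1 read in untreated 1 and 0 in the others.

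**Figure D3:**
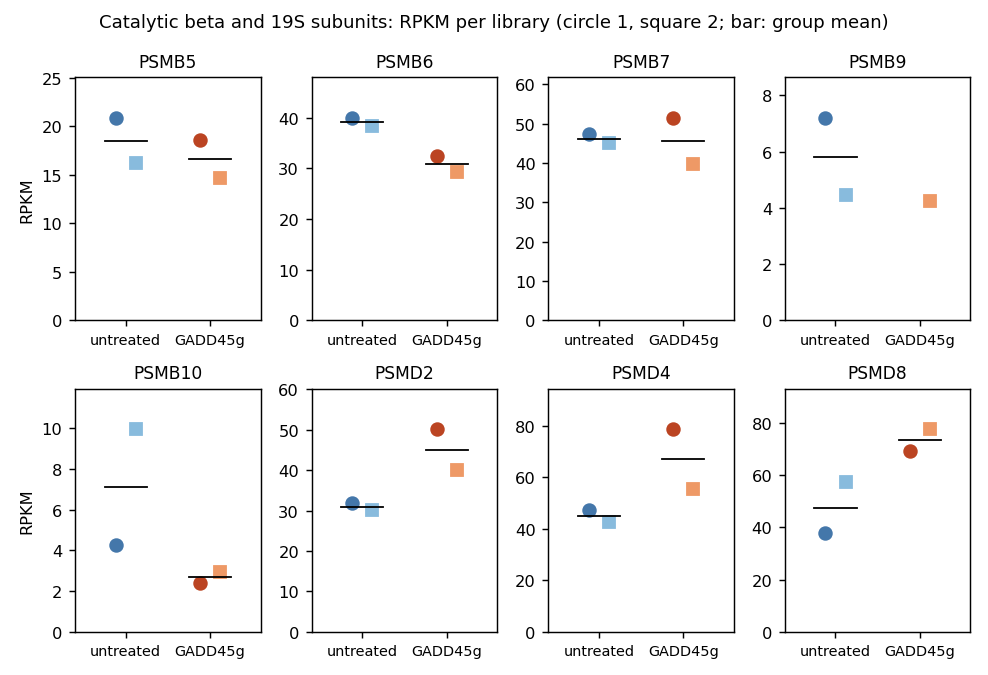
RPKM of catalytic beta subunits and of 3 subunits of the 19S cap in each library (circles, replicate 1; squares, replicate 2; bars, group means where both libraries list the gene; axes start at 0). PSMB5 and PSMB7 overlap between groups, PSMB10 lies lower and PSMD2, PSMD4 and PSMD8 lie higher in both GADD45g libraries.

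In the 19S cap 0 of 17 tested subunits passed the threshold, with 2 at an unadjusted limma p under 0.05 and 1, PSMD8, with voom on recovered reads (adjusted p = 0.0421). Over all tested genes, 38.9% passed in either direction and 5138 of 10771 had an unadjusted limma p under 0.05. With voom, 29.6% of all genes fell and 13.5% rose. The 6 ATPases all overlapped between groups. PSMC4, the highest of them by the mean over all 4 libraries although PSMC2 was higher in 3 of them, was at 35.3 and 31.2 RPKM untreated and 55.1 and 32.0 RPKM with GADD45g, where GADD45g 1 alone was high (log2 change 0.33 ± 0.28). PSMC3 was at 26.2 and 27.4 RPKM against 26.3 and 18.3 RPKM, with GADD45g 2 alone low (-0.28 ± 0.25).

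Of the 11 non-ATPase subunits, 4 had both GADD45g values above and 3 had both below the untreated ones, where 24.1% and 45.8% of all tested genes did. PSMD8, a subunit of the lid, was at 37.7 and 57.4 RPKM untreated and 69.1 and 77.4 RPKM with GADD45g. Its log2 change was 0.64 ± 0.27 (adjusted p = 0.0806), and it passed in 5 of 16 settings, among them upper quartile scaling (0.0301) and the shift of the median (0.0285). PSMD4, a receptor for ubiquitin chains, was at 47.3 and 42.7 RPKM against 78.7 and 55.4 RPKM (0.55 ± 0.26, adjusted p = 0.118). PSMD2, the scaffold that receives shuttle factors, was at 31.8 and 30.1 RPKM against 50.1 and 39.99 RPKM (0.52 ± 0.24, adjusted p = 0.108). PSMD4 and PSMD2, singled out after their values were seen, passed in 3 of 16 settings, upper quartile scaling, quantile normalization and the shift of the median (0.0335 to 0.0453). PSMD14, the deubiquitinase of the lid, lay the other way, at 18.7 and 13.8 RPKM untreated and 10.8 and 10.5 RPKM with GADD45g (-0.55 ± 0.23, adjusted p = 0.0857; 0.0488 without untreated 2). PSMD1 and PSMD7 also had both GADD45g values below the untreated ones, and the fourth higher one was PSMD11, with log2 changes of -0.47, -0.33 and 0.27. The summed level of the cap subunits was 417 and 397 RPKM untreated and 495 and 421 RPKM with GADD45g, while that of the constitutive core subunits was 559 and 480 RPKM against 463 and 409 RPKM.

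Activators and the inhibitor did not pass the threshold (0 of 5 tested, 0 at an unadjusted limma p under 0.05 and 0 with voom). Over all tested genes, 38.9% passed in either direction and 5138 of 10771 had an unadjusted limma p under 0.05. With voom, 29.6% of all genes fell and 13.5% rose. PSME1, a subunit of the PA28 alpha-beta cap, was at 54.8 and 57.5 RPKM untreated and 47.6 and 45.4 RPKM with GADD45g, a log2 change of -0.27 (95% interval -0.78 to 0.25). Its partner PSME2, whose stretch is shown above, was at 18.5 and 18.2 RPKM against 16.5 and 14.1 RPKM (-0.25, interval -0.74 to 0.24). PSME3, the nuclear PA28 gamma, was at 23.8 and 22.1 RPKM against 16.99 and 15.3 RPKM (-0.48, interval -0.98 to 0.01). All 3 had GADD45g values below both untreated ones, an order that 45.8% of all tested genes had. PSME4, the activator PA200, lay the other way, at 17.3 and 17.6 RPKM against 18.7 and 22.3 RPKM (0.21, interval -0.29 to 0.71). PSMF1, known as PI31, was at 35.1 and 37.9 RPKM against 33.9 and 29.5 RPKM (-0.20), with both GADD45g values also below both untreated ones. The binding partners PSMC3IP and PSME3IP1 had log2 changes of 0.04 and -0.28 and did not pass.

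Subunits that stand in equal number in the particle differed widely in RPKM. Over 13 constitutive core subunits, the lowest, the median and the highest were 0.395, 39.98 and 107 RPKM in untreated 1 and 0.406, 29.2 and 80.4 RPKM in GADD45g 2. The lowest was PSMA6, an alpha subunit, at 0.395, 0.561, 0.294 and 0.406 RPKM (48, 57, 36 and 42 reads). PSMA2, another, was at 1.66, 1.00, 0.685 and 0.787 RPKM, and PSMD9, a cap chaperone, at 0.564, 0.421, 0.820 and 0.214 RPKM. PSMA6 and PSMD9 were below the filter. In GENCODE 29, another gene on the same strand shares 14.1% of the exon bases of PSMA6, 14.6% of PSMA2, 19.9% of PSMD9, 24.7% of PSMA1 and 34.8% of PSMB10. These were the 5 members with a share of at least 10%, a limit set after the values were seen. Their mean levels ran from 0.414 to 5.32 RPKM, beside a median of 19.2 RPKM (0.684 to 91.4) for the other 41, with PSMA8 and PSMB11 left out. The unnamed overlapping genes of PSMA6, PSMA2 and PSMA1 were listed at 0 to 0.0827 RPKM in the 3 files that list them, and that of PSMB10 at 0.220 to 0.426 RPKM. The share of 50-base stretches of transcript found in genes elsewhere was 5.5% for PSMA6 and 1.3% for PSMA2, and highest for PSMC1 at 20.5%, whose levels were 11.8, 10.1, 10.9 and 10.4 RPKM. No source used here says how reads in shared exons were counted, so the levels of these genes, PSMB10 included, are uncertain.

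**Figure D4:**
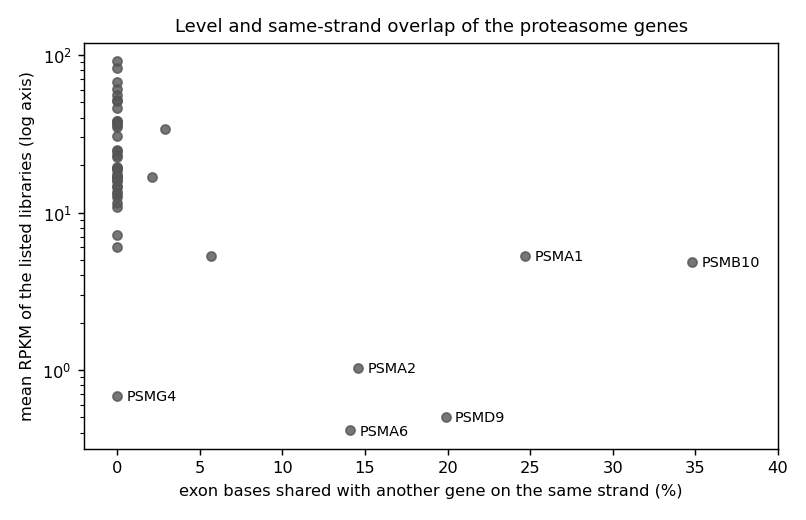
Mean RPKM over the listed libraries (log axis) against the share of exon bases that another gene on the same strand shares in GENCODE 29, for 46 members, with PSMA8 and PSMB11 left out. The 5 genes at 10% or more lie at 5.32 RPKM or less, and PSMG4 is low without such overlap.

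Genes that control the expression of proteasome genes were followed on a separate list. On this list of 13 transcription factors of proteasome genes and proteins that process them, 5 rose and 1 fell, with a median log2 change of 0.47, where 12.2% of all tested genes rose and 26.7% fell. NFE2L1, the factor that restores proteasome genes when the proteasome is impaired, rose from 20.5 and 26.4 RPKM to 38.3 and 39.1 RPKM (log2 change 0.71 ± 0.24, adjusted p = 0.0354). DDI2, the protease that releases NFE2L1 from the endoplasmic reticulum, rose from 5.11 and 4.43 RPKM to 9.24 and 12.9 RPKM (1.05 ± 0.23, adjusted p = 0.00482). NFE2L2, the oxidative stress factor, rose from 21.3 and 23.3 RPKM to 33.0 and 47.3 RPKM (0.80 ± 0.25, adjusted p = 0.0272). The call of NFE2L1 was lost without untreated 1 or either GADD45g library, that of NFE2L2 without either untreated library or GADD45g 2, and that of DDI2 without GADD45g 2 (highest adjusted p 0.140, 0.224 and 0.0759). All 3 were also lost without a filter. The dimer partners MAFF and MAFK rose as well, MAFF from 5.21 and 4.65 RPKM to 39.0 and 24.5 RPKM (2.43 ± 0.26, adjusted p = 5.77e-05). MAFK changed by 0.88 (adjusted p = 0.0102, up to 0.138 without a filter, untreated 1 or GADD45g 1). NFYB, a subunit of the CCAAT-binding factor NF-Y, fell from 8.91 and 6.82 RPKM to 3.01 and 3.40 RPKM (-1.07 ± 0.22, adjusted p = 0.00341).

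Of 13 proteasome-associated proteins, 3 rose and 2 fell, a share near the 38.9% of all tested genes that passed in either direction. ZFAND2A, a stress-induced proteasome-binding protein, rose from 3.53 and 3.10 RPKM to 9.47 and 6.97 RPKM (1.08 ± 0.23, adjusted p = 0.00346), and missed the threshold without a filter and without GADD45g 1 (up to 0.0609). ADRM1, a ubiquitin receptor of the cap, changed by 0.73 (adjusted p = 0.0448), but its call was lost in 4 of 16 settings (up to 0.307). AKIRIN2, which carries proteasomes into the nucleus, changed by 0.70 (adjusted p = 0.0453) and was named after its value was seen. Its call was not examined in the alternative settings. USP14, a deubiquitinase that binds the cap, fell from 20.8 and 14.8 RPKM to 8.73 and 9.54 RPKM (-0.87 ± 0.24, adjusted p = 0.0142; lost in 5 of 16 settings, up to 0.0909). PAAF1, given above, was the other that fell.

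Genes of ubiquitin, its activation and shuttle factors formed another list, of which not every gene is reported here. RPS27A, which encodes ubiquitin fused to a ribosomal protein, fell from 79.2 and 82.3 RPKM to 23.5 and 42.9 RPKM (-1.32 ± 0.29, adjusted p = 0.00486; up to 0.0786 in 4 of 16 settings). NPLOC4, a cofactor of the unfoldase VCP, changed by 0.63 (adjusted p = 0.0453), and its call was lost with any library left out and without a filter (up to 0.196). DDI2 stands in this list too.

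On the list of peptide transport and trimming, which lies downstream of the inducible subunits, 1 of 8 tested genes rose and 1 fell, where 12.2% of all tested genes rose and 26.7% fell. The peptide transporter subunit TAP1 changed by 0.63 (adjusted p = 0.0456), a call lost with any library left out and without a filter (up to 0.273). NLRC5, a transactivator of class I presentation genes, fell from 2.06 and 3.91 RPKM to 0.897 and 0.824 RPKM (-1.06 ± 0.26, adjusted p = 0.00806; up to 0.108 without a filter or GADD45g 2). IRF1, which binds interferon-stimulated response elements, was at 2.94 and 5.23 RPKM against 6.47 and 7.18 RPKM, and its log2 change of 0.66 did not pass (adjusted p = 0.0630; it did pass in 8 of 16 settings).

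Related complexes were counted in the same way, beside 26.7% of all tested genes that fell. The COP9 signalosome and the initiation factor eIF3 share the architecture of the proteasome lid. In the COP9 signalosome 2 of 9 genes fell (median log2 change -0.08), led by COPS3 from 21.9 and 20.6 RPKM to 7.92 and 8.58 RPKM (-1.27 ± 0.22, adjusted p = 0.00109). In eIF3, 10 of 13 fell (median -0.96), with EIF3E from 150 and 117 RPKM to 45.8 and 51.2 RPKM. In the CCT chaperonin, a folding machine of the cytosol, 4 of 8 fell (median -0.70), with CCT5 from 57.2 and 52.0 RPKM to 17.2 and 14.97 RPKM. In the lid and base non-ATPase subunits 0 of 11 fell, with a median of 0.14. The difference between these lists was not tested. After a shift of the median change to 0, the medians were 0.14 for the COP9 signalosome, -0.74 for eIF3, -0.48 for CCT and 0.35 for the non-ATPase subunits.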

How the data were processed

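Per the labels, column-purified total RNA of 4 cultures was sequenced on Illumina libraries. The deposited tables hold RPKM for each Ensembl gene ID, per the file headers. TopHat, Cuffnorm, Cuffdiff and the build hg19 appear in the submitters' processing notes, with no version. The table of GADD45g 1, as used here, stops after 27332 IDs, so a gene entered the test only if present in every table. Values of up to 20 reads were whole within 0.01 reads for 100.0% of IDs with an unchanged GENCODE 29 version, which gave the depths. Symbols were found for 51996 IDs.

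RPKM were added up per symbol, and the 10771 symbols averaging 1 RPKM or more were compared as log2(RPKM + 1) with limma 3.58.1 in R 4.3.3 (lmFit, eBayes with trend; residual degrees of freedom 2). P-values are two-sided and were adjusted by Benjamini-Hochberg across these genes. They measure only the spread within groups of cultures, called biological replicates in the design text, moderated across all tested genes (prior degrees of freedom 8.72). That spread includes the difference between libraries numbered 1 and 2. The fit was also run on simulated data with independent noise in each library. These lacked the shared deviation of same-numbered libraries, so that run does not test the calls given here. Per-library values were given for catalytic, activator, inhibitor and assembly genes, for the highest and the most raised and lowered member of each other class, and for up to 4 genes per companion list, by adjusted p. Values of some other members, among them PSMA4, PSMB4, PSMD2 and PSMD4, were given outside this rule. Members and lists were chosen with earlier results of these data known. Alternatives were other pseudocounts, filters, scalings and priors, a replicate block, 1 library left out, 1 row kept per symbol, and voom on recovered reads.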

Additional observations from a re-analysis of the deposited data

How the results depend on the processing

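The calls of PSMG1 and PSMG2 held in all 16 settings. The count of members that fell was 4, and 2 after quantile normalization or a shift of the median change to 0; leaving out 1 library at a time gave 2 to 5. The count that rose was 0, beside 12.2% of all genes. It was 3 after upper quartile scaling (15.8% of all genes), 2 after quantile normalization (17.4%), 4 after the shift (17.4%) and 1 with voom (13.5%). The replicate block pairs libraries by title suffix. With it, 6 of 42 members fell and 1 rose, beside 3393 and 1594 of all 10771 genes. PSMA4, PSMD8 and PSMG3 then passed (adjusted p 0.0359, 0.0274 and 0.0279). Same-numbered libraries deviated together (r = 0.35 across genes), but 2 pairs with no label that marks a shared experiment do not establish pairing. The median change of tested members was 0.038 after the shift, which moves every gene up by construction. Upper quartile scaling changed the log2 ratio of summed levels from -0.25 to -0.074 for the core, from 0.17 to 0.35 for the cap and from -0.22 to -0.045 for activators; for the 20S chaperones, at -1.36, leaving out 1 library gave -1.53 to -1.16. Over all genes, calls without a filter were 1639 lower and 823 higher, and with a library left out 1766 to 2449 lower and 798 to 1133 higher. For PSMB10 against PSMB7 the log2 difference of ratios was -1.26, and -1.91 to -0.62 with a library left out. PSMA6, PSMA8, PSMB11, PSMD9 and PSMG4 lay below the filter on mean RPKM and have no test in the fit reported. Counting intervals and floors cover counting error only.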
